A study of Caenorhabditis elegans with 3 samples.

Results

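The nhr genes of Caenorhabditis elegans were taken as all genes of both deposited gene tables whose name is nhr- followed by digits, without nhr-23 and nhr-25. The rule found 281 of 46135 listed genes and used names only, not levels. Of these, 280 were matched to the WBcel235 annotation (Ensembl release 115), which lists 266 as protein coding and 14 as pseudogenes. Messenger RNA was measured in whole L4 larvae of the wild-type strain N2 that had been fed bacteria carrying an RNAi clone. The control clone targets gfp, a sequence that worms lack, and the others target ham-3 or swsn-2.2, which encode related subunits of SWI/SNF, a complex that remodels chromatin. Each group is 1 library with no replicates, and the animals were grown from synchronized L1 larvae for 36 hours. The temperature is uncertain, being 25 °C in the series design but 35 °C under growth conditions.

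Nuclear receptors are transcription factors that pair a zinc-finger DNA-binding domain with a ligand-binding domain, and many switch target genes on or off when a small lipophilic molecule binds. The nematode family is far larger than that of insects or mammals, mainly through the duplication of a gene related to HNF4, a vertebrate receptor of liver and gut. In the worm, members of the expanded branch are known for matching fat, propionate and methionine metabolism to the diet and for responses to toxins and metals. Members with orthologues outside nematodes are known mainly from development. Most nhr genes have no known ligand.

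Levels are given as FPKM, fragments scaled by transcript length and by the number mapped, and values in a series of 3 are in the order gfp(RNAi), ham-3(RNAi), swsn-2.2(RNAi). The tables hold no read counts, and the inferred depth was about 19620000, 30790000 and 30820000 fragments. Between 57.6% and 59.8% of the genes used to infer it fell within 0.1 of whole fragments, so the depth is approximate. The ham-3 transcript itself stood at 19.3, 23.1 and 31.5 FPKM, so it was not lower in the ham-3(RNAi)-labelled library than in the control. The swsn-2.2 transcript stood at 19.3 and 37.8 FPKM and was listed at 0 in swsn-2.2(RNAi) larvae. A 0 in these tables can be a failed estimate: ges-1, an intestinal esterase gene used as a gut marker, was at 29.7 FPKM in the control and at 0 in both other libraries. Summed over the 5 intestinal markers above 0 in all libraries, the level was 1144, 1114 and 1215 FPKM, without ges-1. The genes act-5 and ifb-2 had the same order of libraries as the sum. The others did not: elt-2 was at 12.9, 14.3 and 16.5 FPKM, vha-6 at 248, 259 and 269 FPKM and elt-7 at 31.8, 27.6 and 23.7 FPKM. Summed over 4 body wall muscle markers the level was 1105, 1140 and 935 FPKM, lowest in swsn-2.2(RNAi) larvae. The genes unc-54, unc-15 and myo-3 were each lowest there. The muscle regulator gene hlh-1 was highest there, at 4.86, 7.31 and 7.65 FPKM. Germline, epidermal and neuronal markers were also present. Of the markers, dpy-7 was at 0 in the control, unc-31 in the ham-3(RNAi)-labelled library and rab-3 in every library. Summed over 7 adult-stage genes, 6 of them yolk protein genes, the level was 1889, 2205 and 2885 FPKM. How much the stage of the larvae or the share of each tissue adds to the values below was not tested, and in whole larvae fewer cells of a type and less RNA per cell cannot be told apart.

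Most nhr genes were detected, and most at low levels. In the gfp(RNAi) library 234 members were above 0, 171 were at 1 FPKM or more and 51 at 10 FPKM or more. The same counts were 235, 168 and 47 in the ham-3(RNAi)-labelled library and 240, 167 and 45 in swsn-2.2(RNAi) larvae. The median FPKM of the members above 0 was 4.37, 4.18 and 4.35, against 9.65, 9.30 and 9.36 over all genes above 0. At or over 10 FPKM were 21.8%, 20.0% and 18.75% of the members above 0, against 49.4%, 48.8% and 48.9% of all genes above 0. Above 0 in all 3 libraries were 218 members, 27 were at 0 in all, and 36 were at 0 in 1 or 2 libraries.

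The highest member with a value in every library was nhr-68 (H12C20.3; WBcel235 chromosome V, 11573440 to 11575709, forward strand), whose product turns on the propionate shunt. Its level was 55.8, 46.4 and 61.7 FPKM. It was followed by nhr-97 (H27C11.1; chromosome IV, 9757641 to 9764499, forward strand) at 51.7, 48.5 and 56.4 FPKM. Both were lowest in the ham-3(RNAi)-labelled library and highest in swsn-2.2(RNAi) larvae.

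A plateau of similar levels lay below them. The iron-uptake regulator nhr-14 was at 30.98, 24.2 and 28.95 FPKM. The detoxification regulator nhr-45 (F16H11.5; chromosome X, 4656433 to 4660318, reverse strand) was at 30.7, 26.5 and 26.9 FPKM. The sterol and xenobiotic receptor gene nhr-8 was at 30.4, 24.9 and 31.5 FPKM. These genes changed places between libraries, so their order is not fixed. In the same range, nhr-46 was at 27.9, 31.3 and 30.6 FPKM. The gene nhr-10, whose product acts with NHR-68 on the propionate shunt, was nearly level at 26.7, 26.8 and 28.6 FPKM.

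**Figure D1:**
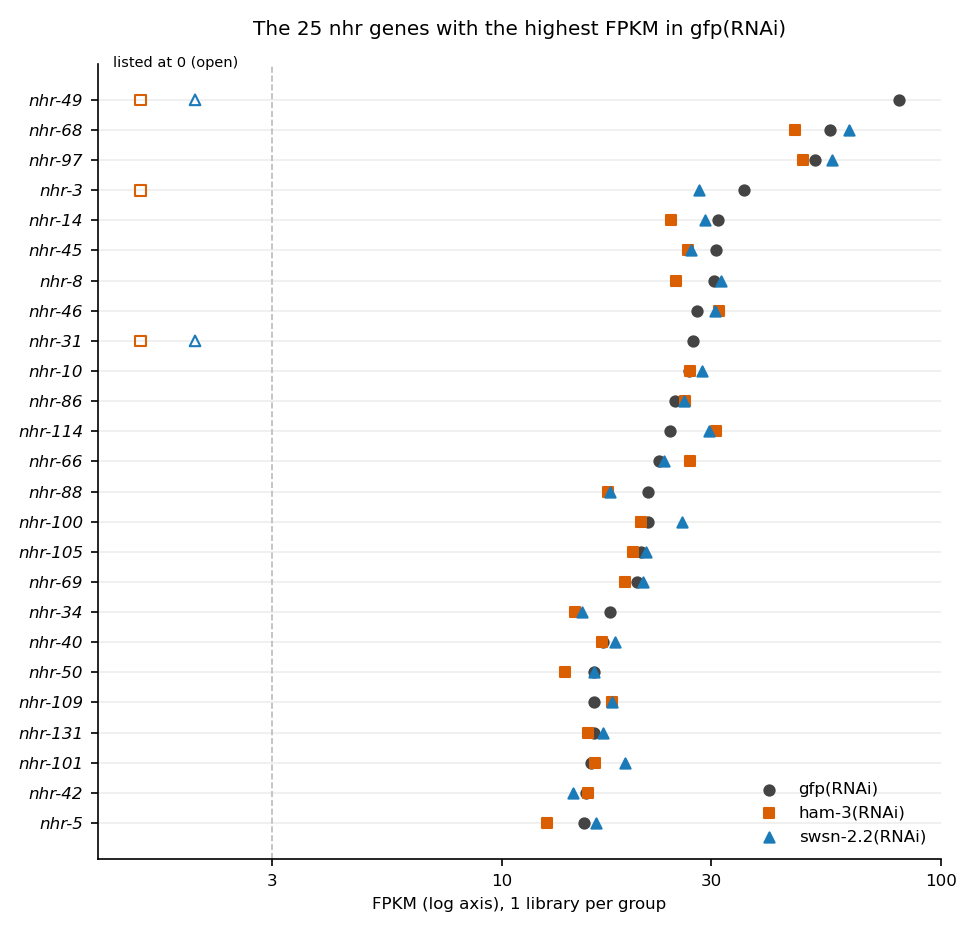
FPKM (log axis) of the 25 nhr genes with the highest value in the gfp(RNAi) library, 1 point per library; open symbols left of the dashed line are values listed at 0. The points of most genes lie close together, nhr-68 and nhr-97 stand above the others with values in every library, and nhr-49, nhr-31 and nhr-3 are listed at 0 in at least 1 library.

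Some of the highest members had no usable value in an RNAi library. The gene nhr-49 (K10C3.6; chromosome I, 9869651 to 9874680, forward strand), which encodes a regulator of fatty acid desaturation and oxidation, had the highest level of all members in the control, 80.2 FPKM, and was listed at 0 in both other libraries. The gene nhr-31, needed for growth of the excretory canal, was at 27.3 FPKM in the control and at 0 in both others. The gene nhr-3 was at 35.6 and 28.1 FPKM in gfp(RNAi) and swsn-2.2(RNAi) larvae and at 0 in the ham-3(RNAi)-labelled library. The authors' deposited table gives nhr-49 the placeholder log2 fold of -33.33 in both comparisons and gives no test for nhr-31 or nhr-3.

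Zeros ran in the other direction too. The gene nhr-103 was listed at 0 in the control and at 5.38 and 6.86 FPKM in the other libraries. Likewise nhr-142 was at 0, 3.89 and 2.60 FPKM, and nhr-238 at 0, 4.48 and 3.93 FPKM. The remaining members with a 0 beside a value of 1 FPKM or more were nhr-275, at 1.36, 0 and 1.16 FPKM, and nhr-141, at 1.01, 1.03 and 0 FPKM. That makes 8 such members, and no fold is given for them where a library is at 0. The other 28 members at 0 in 1 or 2 libraries were below 1 FPKM in the rest.

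With a single library per group no test across animals is possible, so each comparison is described by ratios. The log2 ratio of FPKM + 1 was taken for genes above 0 in both libraries with a mean of at least 1 FPKM, and a gene past 1.5-fold on that scale was counted. The added 1 FPKM shrinks the ratios of low genes. For genes with 1 transcript, a 95% exact interval of the plain FPKM ratio was computed from inferred fragments. It covers counting error only and compares the libraries, not the conditions.

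In the ham-3(RNAi)-labelled library the nhr genes stood close to the control. Of 165 members compared, 0 were higher and 1 was lower past 1.5-fold, against 1.64% higher and 2.85% lower over 14189 genes. Within 1.25-fold lay 88.5% of the members and 84.3% of all genes. There were 82 ratios above 0 and 83 below, with a median log2 ratio of -0.0032, against 0.03 over all genes. Centred on the latter, 71 ratios were above 0 and 94 below. The counting interval lay to a side of 0 for 22 of 76 members that have one, against 34.7% of 7395 genes. Intervals are wider for low genes, such as most members.

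The member past the fold was nhr-234 (Y38E10A.18; chromosome II, 12636678 to 12638491, forward strand), at 6.58, 3.80 and 4.76 FPKM. Its level was highest in the control. The log2 ratio of FPKM + 1 was -0.66 in the ham-3(RNAi)-labelled library, and the interval of its log2 FPKM ratio ran from -1.17 to -0.42. Next came nhr-63, at 12.7, 8.64 and 9.99 FPKM, with a log2 ratio of FPKM + 1 of -0.51. The gene nhr-176, whose product turns on a cytochrome P450 gene in response to the drug thiabendazole, was at 8.87, 6.18 and 8.61 FPKM. Its log2 ratio was -0.46, with an interval of the plain log2 ratio from -0.82 to -0.23, and its level in swsn-2.2(RNAi) larvae lay near the control. The other members at the low end were nhr-193, nhr-61 and nhr-180, with log2 ratios from -0.43 to -0.41.

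At the high end, nhr-230 (Y17D7A.1; chromosome V, 18846780 to 18852729, forward strand) stood at 2.06, 3.50 and 3.56 FPKM. It was higher in both RNAi libraries than in the control, and the interval of its log2 ratio in the ham-3(RNAi)-labelled library was 0.28 to 1.27. Its exons overlap those of wars-1, a tryptophanyl-tRNA synthetase gene, on the opposite strand. No source used here says whether reads were counted by strand, so reads of both genes cannot be told apart. At least 53 members have exons that overlap another annotated gene, so this limit is not particular to nhr-230. Then followed nhr-280, a low gene at 0.89, 1.51 and 0.66 FPKM, and nhr-55, at 14.4, 18.8 and 19.7 FPKM. The vitamin B12 and diet regulator nhr-114 was at 24.1, 30.7 and 29.6 FPKM, the only gene of these above 20 FPKM. Both nhr-55 and nhr-114 were lowest in the control and similar in the other libraries.

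**Figure D2:**
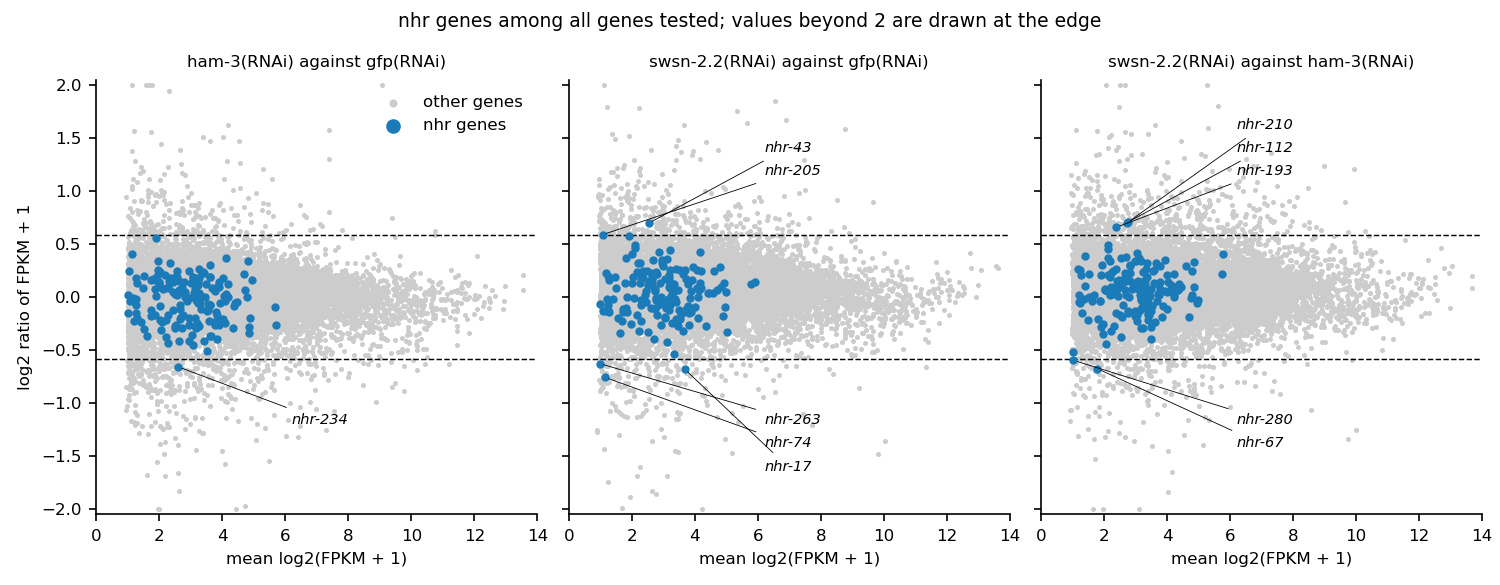
Log2 ratio of FPKM + 1 against mean log2(FPKM + 1) in each comparison, for nhr genes (blue) and all other genes compared (grey); dashed lines mark 1.5-fold. The nhr genes sit at low to middle levels around 0, and those past 1.5-fold are named: 1, 5 and 5 genes in the panels from left to right.

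In swsn-2.2(RNAi) larvae 2 of 166 members were higher and 3 lower past 1.5-fold, against 2.33% higher and 1.45% lower over 14270 genes. Within 1.25-fold lay 86.1% of the members and 83.0% of all genes. The median log2 ratio was 0.04, against 0.08 over all genes, and 89 ratios were above 0 and 77 below. Centred on the median of all genes, 1 member was higher and 4 lower (nhr-61 was the fourth), with 70 ratios above 0 and 96 below. With FPKM scaled to the upper quartile of each library, 1 was higher and 3 lower. The counting interval lay to a side of 0 for 21 of 74 members, against 39.4% of 7437 genes.

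The lower members were led, by level, by nhr-17 (C02B4.2; chromosome X, 12663837 to 12667854, reverse strand), at 15.4, 11.4 and 9.18 FPKM. It was highest in the control and lowest in swsn-2.2(RNAi) larvae, where its log2 ratio was -0.68 and the interval of the plain log2 ratio was -0.94 to -0.54. Its exons overlap those of nlp-76, a neuropeptide-like gene, on the same strand, so reads could be split between the genes. The gene nhr-74 (C27C7.3; chromosome I, 11429014 to 11432156, forward strand) was at 1.87, 1.44 and 0.70 FPKM, a log2 ratio of -0.76. The gene nhr-263 was at 1.45, 1.09 and 0.59 FPKM, a log2 ratio of -0.63. All 3 genes had intermediate levels in the ham-3(RNAi)-labelled library. Not past the fold were nhr-61 at 11.2, 8.15 and 7.43 FPKM and nhr-117 at 8.99, 7.45 and 6.46 FPKM, with the same order of libraries.

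Of the higher members, nhr-43 (C29E6.5; chromosome IV, 11899590 to 11902976, forward strand) was at 3.55, 4.68 and 6.38 FPKM, a log2 ratio of 0.70 in swsn-2.2(RNAi) larvae. The gene nhr-205 was low, at 0.72, 1.16 and 1.58 FPKM, with a log2 ratio of 0.59 that dropped below 1.5-fold under either rescaling. Both were lowest in the control and highest in swsn-2.2(RNAi) larvae. The next 4 members, nhr-230, nhr-231, nhr-37 and nhr-143, had log2 ratios from 0.45 to 0.57.

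The authors' deposited tables include lists of genes called higher or lower, whose largest p-values lie just under 0.01. For ham-3(RNAi), 216 members had a test in the authors' deposited table and were above 0 in both libraries. The lists hold 1 member as higher, nhr-230, and 5 as lower, namely nhr-14, nhr-63, nhr-181, nhr-234 and nhr-260. Over 16683 genes that met both conditions, 1.55% were listed as higher and 3.29% as lower. For swsn-2.2(RNAi), 219 members met both conditions. The lists hold 5 members as higher, namely nhr-43, nhr-55, nhr-143, nhr-205 and nhr-230, and 3 as lower, namely nhr-17, nhr-74 and nhr-117. Over 16711 genes that met both conditions, 3.47% were listed as higher and 2.09% as lower. A q-value under 0.05 in the authors' deposited table was given to nhr-17 (0.000369), nhr-43 (0.0027), nhr-74 (0.0366) and nhr-234 (0.0382). These p and q values come from 1 library per group, so they compare libraries.

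Both RNAi libraries were set against the same control, so a low or high control value moves both ratios, and their likeness is not given as a result. Compared directly, swsn-2.2(RNAi) larvae had 3 of 165 members higher and 2 lower past 1.5-fold than the ham-3(RNAi)-labelled library, against 3.40% higher and 1.45% lower over 14313 genes. There were 106 ratios above 0 and 59 below, or 64.2% above against 60.1% of all genes, and the median log2 ratio was 0.07 against 0.05. The split was 89 to 76 when centred on the median of all genes and 90 to 75 with upper-quartile scaling. The counting interval lay to a side of 0 for 24 of 75 members, against 42.9% of 7423 genes.

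The higher members in this direct comparison all lie on chromosome V, which holds 105 of the 165 members compared. Their control levels lay between those of the RNAi libraries. The gene nhr-210 (517801 to 519545, reverse strand) was at 6.11, 4.34 and 7.73 FPKM, a log2 ratio of 0.71 with an interval of the plain log2 ratio from 0.54 to 1.13. The gene nhr-112 was at 5.26, 4.18 and 7.43 FPKM, a log2 ratio of 0.70. The gene nhr-193 was at 4.62, 3.16 and 5.57 FPKM, a log2 ratio of 0.66 with an interval of the plain log2 ratio from 0.50 to 1.14. Against the control alone, none of them passed 1.5-fold in either library.

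The lower members were nhr-67 and nhr-280. The gene nhr-67 (C08F8.8; chromosome IV, 11169748 to 11174791, forward strand) encodes the worm orthologue of the fly receptor tailless and acts in the anchor cell of the developing vulva. It was at 2.44, 3.35 and 1.72 FPKM, a log2 ratio of -0.68 between the RNAi libraries with an interval of the plain log2 ratio from -1.37 to -0.54. The control lay between them. For nhr-280 the interval ran from -2.89 to 0.25, so its difference was not detectable at this depth.

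Among 11 receptors of fat and central metabolism, 9 could be compared and none passed 1.5-fold in any comparison. Past 1.5-fold were 4.49% of all genes in the ham-3(RNAi)-labelled library, 3.78% in swsn-2.2(RNAi) larvae and 4.85% in the direct comparison. Against such shares, a count of 0 among so few genes is a description only. Against the control, 5 ratios were above 0 and 4 below in the ham-3(RNAi)-labelled library, and 8 above and 1 below in swsn-2.2(RNAi) larvae. Centred on the median of all genes, these splits were 4 to 5 and 6 to 3, and with upper-quartile scaling 5 to 4 and 7 to 2. Of the known partners of NHR-49, nhr-66 was at 22.8, 26.8 and 23.4 FPKM and nhr-13 at 7.94, 7.78 and 6.81 FPKM. The partner gene nhr-80, which supports desaturase expression, was listed at 0 in all libraries. The fat regulator nhr-64 was at 13.1, 14.2 and 14.7 FPKM, and nhr-62, needed for long life under dietary restriction, at 3.71, 4.01 and 4.57 FPKM. Both were lowest in the control, by less than 1.25-fold on the FPKM + 1 scale. The gene nhr-69, whose product acts with DAF-8 in insulin secretion, was at 20.3, 19.1 and 20.9 FPKM. The fat-loss regulator nhr-76 was at 6.67, 6.61 and 8.83 FPKM, with a swsn-2.2(RNAi) interval of the log2 ratio from 0.15 to 0.67.

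All 7 receptors of the response to toxins, metals, hypoxia or pathogens could be compared. None passed 1.5-fold, against 3.78% to 4.85% of all genes over the 3 comparisons. In the ham-3(RNAi)-labelled library 5 ratios were below 0 and 2 above, with a median log2 ratio of -0.20 against 0.03 over all genes, and the split was the same under either rescaling. The lower genes were nhr-8, nhr-14, nhr-45 and nhr-176, with the values given above, and nhr-33, now named hizr-1, the zinc sensor gene, at 4.07, 3.51 and 3.83 FPKM. In swsn-2.2(RNAi) larvae the median was -0.04 against 0.08, with 3 ratios above 0 and 4 below, but 0 and 7 when centred and 2 and 5 with upper-quartile scaling. The pathogen-metabolite sensor nhr-86 was at 24.8, 26.1 and 26 FPKM. The hypoxia-responsive gene nhr-57 was at 8.42, 8.68 and 8.49 FPKM, with an interval of the log2 ratio of -0.20 to 0.29 in the ham-3(RNAi)-labelled library. Both were nearly level across the libraries.

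Of 9 receptors of development and organ form, 4 could be compared. The gene nhr-6, the NR4A orthologue needed for the spermatheca, was at 6.0, 7.31 and 7.74 FPKM, lowest in the control. The muscle gene nhr-40 was at 17.0, 16.9 and 18.1 FPKM. The gene nhr-85, related to the fly E75 receptor and tied to developmental timing, was at 4.58, 4.69 and 5.19 FPKM. The fourth was nhr-67, given above. Below 1 FPKM throughout were the early embryonic receptor gene nhr-2, at 0.83, 0.73 and 0.78 FPKM, and the seam cell gene nhr-60, at 0.54, 0.58 and 0.27 FPKM. The genes nhr-91, the orthologue of the germ cell nuclear factor, and nhr-111 were listed at 0 in all libraries. Of the other conserved members, nhr-41, of the TR2 and TR4 group, was at 13.3, 14.3 and 12.5 FPKM and nhr-48, of the vitamin D receptor group, at 8.82, 10.5 and 9.19 FPKM.

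Genes that some of these receptors are known to control were compared in the same way. Of 7 genes controlled by NHR-49 and its partners, 1 was lower in the ham-3(RNAi)-labelled library and 1 in swsn-2.2(RNAi) larvae past 1.5-fold, against 2.85% and 1.45% of all genes, and none was higher. In the direct comparison 1 was higher and 1 lower, against 3.40% and 1.45% of all genes. With so few genes, these counts are given as a description. The hydroxyacyl-CoA dehydrogenase gene hacd-1 was at 46.9, 27.7 and 64.7 FPKM. It was lowest in the ham-3(RNAi)-labelled library, with log2 ratios of -0.74 there and 1.19 in the direct comparison. The stress-responsive monooxygenase gene fmo-2 was at 2.55, 2.86 and 1.13 FPKM, with a log2 ratio of -0.73 in swsn-2.2(RNAi) larvae and an interval of the plain log2 ratio from -1.72 to -0.65. In the direct comparison its log2 ratio was -0.86. The acyl-CoA synthetase gene acs-2 was at 115, 83.5 and 93.5 FPKM, highest in the control. The desaturase genes did not share an order: fat-6 was at 362, 341 and 396 FPKM, fat-7 at 8.99, 12.2 and 11.0 FPKM, and fat-5 at 6.51, 6.83 and 4.87 FPKM. The level of icl-1, a glyoxylate cycle gene, was 651, 600 and 446 FPKM, lowest in swsn-2.2(RNAi) larvae.

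The propionate shunt, which breaks down propionate when vitamin B12 is scarce, is controlled by NHR-10 and NHR-68. All 5 of its genes had ratios below 0 in the ham-3(RNAi)-labelled library (4 of 5 with upper-quartile scaling), while 55.9% of all genes had ratios above 0. Past 1.5-fold was 1 of them, against 2.85% of all genes. In swsn-2.2(RNAi) larvae 4 were above 0 and 1 below (3 and 2 when centred), while 65.6% of all genes were above 0. None of the 5 passed 1.5-fold there, against 3.78% of all genes. The acyl-CoA dehydrogenase gene acdh-1, the first step, was at 332, 202 and 390 FPKM, with log2 ratios of -0.72 in the ham-3(RNAi)-labelled library, 0.23 in swsn-2.2(RNAi) larvae and 0.95 between them. It was lowest in the same library as nhr-68, whose log2 ratio there was -0.26, while that of nhr-10 was 0.0012. Whether the level of either receptor gene bears on these genes was not tested. The later-step genes were ech-6 at 402, 360 and 439 FPKM, hach-1 at 151, 150.3 and 159 FPKM, and hphd-1 at 154, 151 and 218 FPKM. The last, alh-8, was at 368, 346 and 335 FPKM, highest in the control. Like acdh-1, the intestinal marker sum was lowest in the ham-3(RNAi)-labelled library and highest in swsn-2.2(RNAi) larvae. Single intestinal markers did not all share that order, and the part of the gut's share in these values was not tested.

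**Figure D3:**
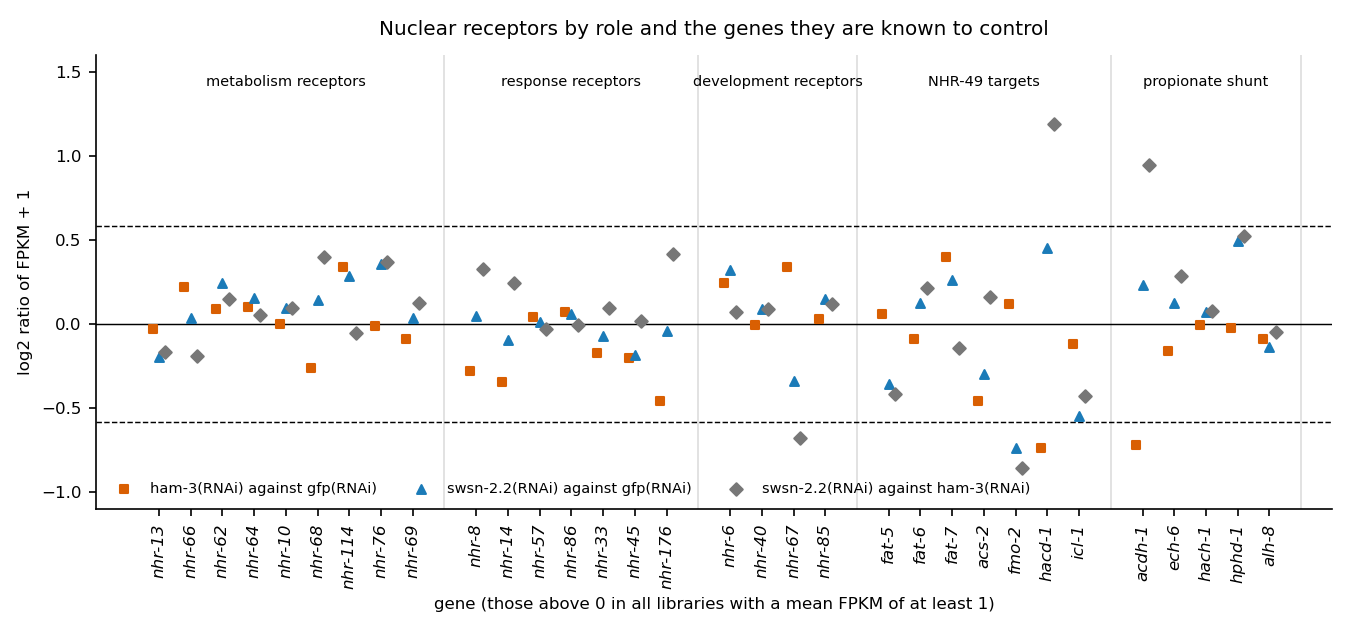
Log2 ratio of FPKM + 1 in the 3 comparisons for nuclear receptor genes by role and for genes that NHR-49 or NHR-10 and NHR-68 are known to control; dashed lines mark 1.5-fold. Of the receptors drawn, only nhr-67 crosses a line, in the direct comparison, while hacd-1, acdh-1 and fmo-2 cross it among the controlled genes.

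Other nuclear receptor genes and their helpers showed no gene past 1.5-fold, against 3.78% to 4.85% of all genes over the 3 comparisons. Of 7 receptors outside the nhr rule, 4 could be compared: daf-12, the dafachronic acid receptor gene, stood at 9.97, 11.3 and 10.6 FPKM, sex-1, a sex-determination gene, at 5.64, 3.84 and 4.04 FPKM, nhr-25 at 2.36, 2.54 and 2.46 FPKM, and unc-55 at 1.31, 1.02 and 1.06 FPKM. Among coregulators, all 5 that could be compared were above 0 in the ham-3(RNAi)-labelled library, also under either rescaling, against 55.9% of all genes. In swsn-2.2(RNAi) larvae 3 were above 0 and 2 below, or 2 and 3 under either rescaling. In the direct comparison 1 was above 0 and 5 below, with cdk-8, a kinase gene of the Mediator complex, added. That gene was listed at 0 in the control and stood at 17.6 and 19.1 FPKM in the other libraries. The largest ratio to the control in the ham-3(RNAi)-labelled library was that of din-1, a corepressor gene of DAF-12, at 20.1, 25.5 and 19.04 FPKM. The Mediator gene mdt-15, a coactivator of NHR-49, and the corepressor gene gei-8 were listed at 0 in all libraries. Of 8 genes of dafachronic acid synthesis and sterol supply, 7 could be compared. The cytochrome P450 gene daf-9, which makes the hormone, was at 2.49, 2.97 and 3.03 FPKM.

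The members are unevenly spread over the genome. Chromosome V holds 175 of them (62.3%), IV holds 34, I and X hold 24 each, II holds 16 and III holds 8. Levels followed another order: the median FPKM in the control was 7.83 on X and 7.59 on IV, against 2.45 on V and 0.43 on I, zeros included. At 10 FPKM or more were 44.1% of the members on IV and 37.5% on X, against 10.9% on V. On V, 73 ratios of swsn-2.2(RNAi) larvae to the ham-3(RNAi)-labelled library were above 0 and 32 below, or 64 and 41 under either rescaling. Over all members it was 106 and 59, or 89 and 76 when centred, and 60.1% of all genes were above 0.

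Many members are neighbours. Another member lay within 10000 bp of 170 of the 280 placed members, 130 of them on V, and the median distance to the nearest member was 2268 bp. These 170 form 46 runs, of which 10 have 6 or more genes and hold 81 members, 9 of these runs on V. Over 103 neighbouring pairs, Spearman's rho of the control levels was 0.69, a description of 1 library in which near-identical copies could share reads. In 10 pairs the levels differed by 4-fold or more on the FPKM + 1 scale.

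The longest run has 12 genes, from nhr-123 to nhr-131 (chromosome V, 451451 to 497297), and all were at 1 FPKM or more in every library. In the control they ranged from 1.11 FPKM for nhr-123 to 16.2 FPKM for nhr-131, with a median of 8.11 FPKM, and nhr-55 is a member of the run. None of the 12 passed 1.5-fold in any comparison, against 3.78% to 4.85% of all genes over the 3 comparisons. By contrast, the 9 genes from nhr-185 to nhr-124 (chromosome V, 3844429 to 3886204) stayed below 1 FPKM in every library, with a highest control value of 0.898 FPKM. The 9 genes from nhr-51 to nhr-53 (chromosome V, 15674007 to 15702363) were near 0 apart from the last, nhr-53, at 4.62, 4.15 and 4.43 FPKM. So in some runs all genes were at 1 FPKM or more in these whole larvae. Some were nearly silent, and from nhr-51 to nhr-53 a single gene stood apart. Whether neighbours are expressed in the same cells was not tested.

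In the run from nhr-44 to nhr-144 (chromosome V, 8961878 to 8977465), 5 of 6 genes could be compared. All 5 were higher in swsn-2.2(RNAi) larvae than in the ham-3(RNAi)-labelled library, also under either rescaling, while 60.1% of all genes were higher. Their median log2 ratio was 0.26, and none passed 1.5-fold, against 4.85% of all genes. In other runs, 7 of 9 genes compared were higher from nhr-133 to nhr-96 and 5 of 6 from nhr-182 to nhr-226. Both counts were unchanged under either rescaling. It was 6 of 12 from nhr-123 to nhr-131, and 4 of 6 both from nhr-178 to nhr-238 and from nhr-122 to nhr-274. From nhr-161 to nhr-42 it was 4 of 7, or 3 of 7 under either rescaling. From nhr-206 to nhr-136 it was 6 of 6, or 3 of 6 under either rescaling. In the run from nhr-44 to nhr-144, nhr-44 was at 3.61, 2.71 and 4.21 FPKM and nhr-143 at 7.02, 8.11 and 9.93 FPKM. The control lay between the RNAi libraries for nhr-44 and below both for nhr-143. The run on IV, from nhr-122 to nhr-274 (1613892 to 1645298), includes nhr-287, annotated as a pseudogene, at 12.2, 12.8 and 13.4 FPKM, the highest of the 14 pseudogenes. In all, 5 pseudogene members were at 1 FPKM or more in the control.

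**Figure D4:**
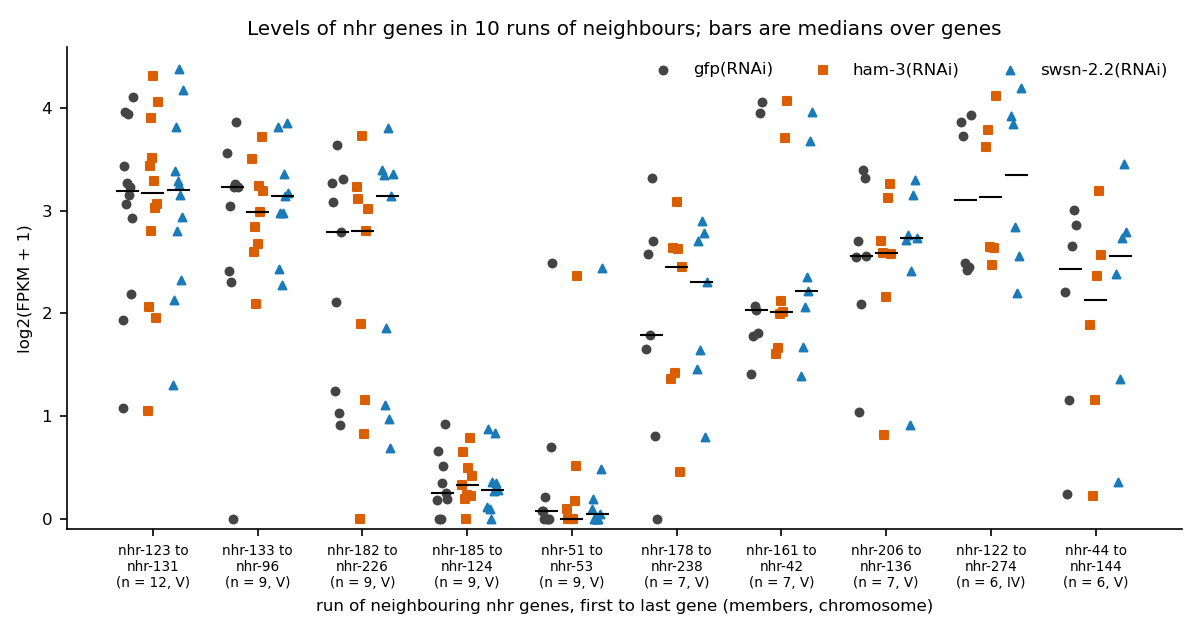
Levels, log2(FPKM + 1), of the nhr genes in the 10 runs of 6 or more neighbours, 1 point per gene and library; horizontal bars are medians over the genes of a run. Levels differ more between genes and runs than between libraries, and the medians of the runs from nhr-185 and from nhr-51 lie near 0.

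The transcript tables hold 436 transcripts of the members, and 79 members have more than 1. Of 59 such members at 1 FPKM or more in every library, 48 had the same leading transcript in all 3. The gene nhr-8 was led by F33D4.1a with 95.8%, 96.9% and 92.8% of its FPKM, and nhr-86 by Y40B10A.8.1 with 93.0%, 88.4% and 91.1%. In nhr-68 the leading transcript was H12C20.3a.1 with 53.7% in the gfp(RNAi) and swsn-2.2(RNAi) libraries, and H12C20.3a.2 with 99.9% in the ham-3(RNAi)-labelled library. The NHR-49 partner gene nhr-66 was led by T09A12.4c with 58.2% in the control and 58.5% in swsn-2.2(RNAi) larvae, and by T09A12.4a with 38.0% in the ham-3(RNAi)-labelled library. The deposited tables give 1 estimate per library and no error for these shares, so whether such switches exceed the error of assigning reads to overlapping transcripts was not tested.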

How the data were processed

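Poly(A) RNA of 3 libraries, 1 per group, was sequenced in paired reads of 73 bp, per the labels' protocols. The gene and transcript tables hold FPKM that the authors computed with Cufflinks, and log2 folds and p-values from Cuffdiff, per the submitters' processing notes; q-values stand in the authors' deposited lists. Not given in the sources used here are versions, the aligner, the strand setting and the genome build. FPKM are not counts, so no count test was run. Log2 ratios of FPKM + 1 were computed with pandas 2.3.3 and NumPy 2.4.6 for genes above 0 in both libraries with a mean of at least 1 FPKM. Depth was inferred from the spacing of values of genes with 1 transcript (up to 0.3 FPKM, at least 500 bp). Intervals are 95% exact conditional binomial (Clopper-Pearson, SciPy 1.17.1) and cover counting error only. Depth and intervals use exonic lengths from Ensembl release 115, which can differ from those the authors used. Coordinates and neighbours come from WBcel235, Ensembl release 115, since 272 of 280 deposited intervals overlap the annotated gene but 107 match at an end. Neighbours lie within 10000 bp.

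The members and lists were chosen with earlier results of these data known. Named are members of the role lists, the 6 largest and 6 smallest ratios per comparison, the 10 highest in the control, members of the authors' lists, and those listed at 0 beside 5 FPKM or more. Others (nhr-53, nhr-123, nhr-131, nhr-141, nhr-238, nhr-275, nhr-287 and the ends of runs) were chosen after their values were seen. Other pseudocounts, filters, scalings and folds were tried. The steps were tested on simulated data.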

Additional observations from a re-analysis of the deposited data

How the results depend on the processing

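Each of the 3 comparisons was recomputed under other settings. No named ratio past 1.5-fold changed sign, but a pseudocount or a filter cannot change a sign. The rescalings shift ratios by little, so this does not show how stable the ratios are. For ham-3(RNAi) against gfp(RNAi), the number of members past the fold was 1 of 165 as reported, 3 with a pseudocount of 0.1 FPKM and 0 with 5 FPKM. It was 7 of 171 with genes listed at 0 kept and 0 at 2-fold. Over all genes, 2.69% were higher and 4.48% lower with 0.1 FPKM, and 0.486% and 1.10% with 5 FPKM. The shares were 3.69% and 4.01% with zeros kept, and 0.303% and 0.514% at 2-fold. The median log2 ratio of the members, -0.0032, became 0.0095 with upper-quartile scaling and 0.0021 without genes that the authors did not test. For swsn-2.2(RNAi) against gfp(RNAi), the number was 5 of 166 as reported, 8 with a pseudocount of 0.1 FPKM and 0 with 5 FPKM. It was 1 of 110 with a mean of at least 5 FPKM, 10 of 171 with genes listed at 0 kept and 0 at 2-fold. Over all genes, 3.99% were higher and 2.66% lower with 0.1 FPKM, and 0.708% and 0.491% with 5 FPKM. The shares were 1.69% and 1.03% with the higher mean, 4.14% and 2.54% with zeros kept, and 0.392% and 0.336% at 2-fold. The members' median of 0.04 became -0.0078 without a filter, -0.042 when centred on all genes and -0.0026 with upper-quartile scaling. In the direct comparison the number was 5 of 165 as reported, 8 with a pseudocount of 0.1 FPKM and 0 with 5 FPKM. It was 2 of 108 with a mean of at least 5 FPKM, all of them higher, and 0 at 2-fold. Over all genes, 5.09% were higher and 2.33% lower with 0.1 FPKM, and 1.46% and 0.545% with 5 FPKM. At 2-fold the shares were 0.580% and 0.279%, and with the higher mean 2.92% of all genes were higher. A larger pseudocount or mean leaves out or shrinks low genes, by construction, and keeping zeros adds genes with no reliable estimate. Of 139 named ratios, 6 moved with a pseudocount of 0.1 FPKM and 20 with 5 FPKM. Summing the transcript tables changed none of these counts. No paired analysis was possible because each group is 1 library, and leaving out a library leaves no comparison. Depth limits low members: below about 1 FPKM the ratios rest on few fragments.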
